A study of Arabidopsis thaliana with 18 samples.

Results

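RCA, SBPASE, HPR, ALDH11A3 and PPDK encode enzymes of photosynthetic carbon metabolism or of reactions linked to it, and they are described here in cells sorted from Arabidopsis roots. Each was taken by name, through the probe set annotated to that gene alone, which gave 5 genes of 13356 with such a probe set. The 18 Affymetrix ATH1 arrays of the study were hybridised with RNA from protoplasts, which are cells freed of their walls, sorted for green fluorescent protein (GFP). All plants were wild type Columbia with an ER-localized GFP, driven in 16 arrays by the promoter of ARR15 and in 2 by that of ARR5, both type-A response regulator genes that cytokinin switches on. A sample therefore holds whichever cells the reporter marked, from many roots pooled (about 200 for the dissected ones).

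Roots of 8-day-old ARR15::GFP seedlings were cut into 3 zones, of which the labels call the basal one cambium, the middle one transition cambium and the apical one procambium. Treated seedlings grew for 6 days on plain medium and then for 48 h on medium with 100 nM BAP, a synthetic cytokinin, and gave 3 arrays of cambium, 3 of transition cambium and 3 of procambium. Untreated seedlings of the same age gave 3, 2 and 2 arrays of these zones. The 2 ARR5::GFP arrays came from the undissected lower roots of untreated 6-day-old seedlings, whose reporter marks procambium and lateral root cap according to the labels. Every group grew on sucrose medium under a cycle of light and dark.

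The Calvin cycle fixes CO2 in chloroplasts through Rubisco and then rebuilds the sugar phosphate that accepts CO2. When Rubisco takes up oxygen in place of CO2, photorespiration recovers the carbon of the 2-carbon product through chloroplasts, peroxisomes and mitochondria. PPDK, pyruvate orthophosphate dikinase, converts pyruvate to phosphoenolpyruvate, and is best known for C4 photosynthesis in plants such as maize. Arabidopsis is a C3 plant, where PPDK has been linked to seedling gluconeogenesis and to nitrogen export from ageing leaves. Roots are mostly without chloroplasts, but they can green in light, and cytokinin is known to promote this.

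Values are log2 signals, and log2 5 is used as the level above which a probe set counts as detected. Between 47.2% and 49.9% of probe sets reached it on an array. A signal of about 2.2 is the lowest the processing gives, so where no array of the dimmer group reached log2 5 a difference is given as a lower bound, "at least N-fold", set by the brighter group's mean against log2 5. Adjusted p-values are those of limma with Benjamini-Hochberg adjustment over all probe sets tested, a gene is called at an adjusted p under 0.05, and n is the number of arrays in a group. Of 8 genes listed under procambium and cambium, 4 have a probe set here: LHW, MOL1 and the peptide genes CLE41 and CLE44. The list does not separate genes of these cells from genes of neighbouring tissue, so they do not identify the sorted cells. LHW and MOL1 were above log2 5 on all 18 arrays, CLE41 was at 8.01 or more on all cambium and transition cambium arrays, and CLE44 was between 2.18 and 2.25 on all procambium and ARR5::GFP arrays. In untreated procambium CLE41 was at 4.72 to 5.60. All 4 were called higher in untreated cambium than in untreated procambium, where 18.4% of all probe sets were. The LHW difference was log2 0.81, a call lost without any 1 of 2 of the 5 arrays and in 2 of 8 other settings. The endogenous ARR15 transcript was at 2.51 to 3.26 on every untreated array and at 5.32 to 7.66 after BAP. The zones were sorted with a reporter that answers to cytokinin, so a change in which cells were sorted and a change within the same cells cannot be told apart.

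RCA, SBPASE, HPR and ALDH11A3 shared a pattern: each had its highest mean in untreated cambium, the next highest in BAP-treated cambium and lower means towards the root tip. PPDK had another pattern, with its highest means in BAP-treated procambium and in ARR5::GFP cells.

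**Figure D1:**
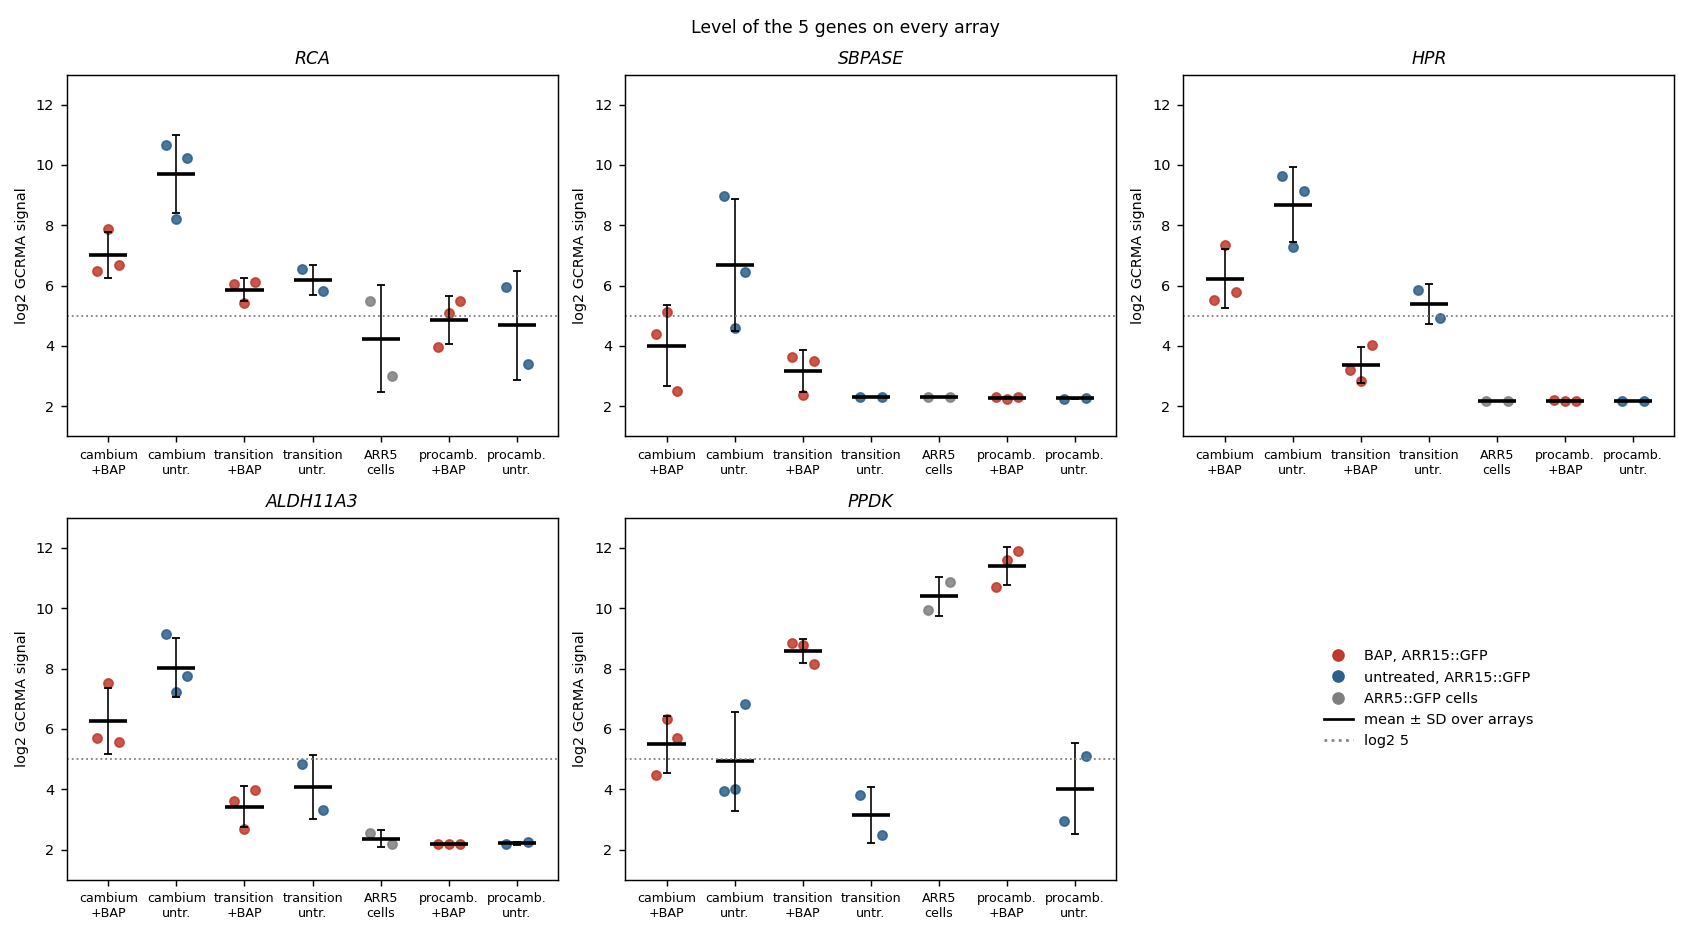
Log2 signal of the 5 genes (vertical axis) on each of the 18 arrays, by group (horizontal axis), with a bar at each group mean, its SD and a dotted line at log2 5. RCA, SBPASE, HPR and ALDH11A3 have their highest group mean in untreated cambium (9.70, 6.67, 8.68 and 8.04), and PPDK in BAP-treated procambium (11.40).

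RCA encodes Rubisco activase, which frees Rubisco's active sites of tightly bound sugar phosphates. RCA read 6.49, 7.87 and 6.68 in BAP-treated cambium and 10.66, 8.22 and 10.23 in untreated cambium. In transition cambium it read 6.05, 5.42 and 6.13 after BAP and 6.53 and 5.83 without it. It read 5.49 and 2.99 in ARR5::GFP cells, 3.96, 5.09 and 5.49 in BAP-treated procambium, and 5.96 and 3.40 in untreated procambium. All 3 untreated cambium arrays stood above all 15 others, while each of the other groups overlapped the next in order of their means. RCA was detected on every cambium and transition cambium array, and on some arrays of each procambium and ARR5::GFP group.

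Along the untreated root, RCA was 32.5-fold higher in cambium than in procambium, a log2 difference of 5.02 (standard error 0.77, adjusted p = 0.00023). The size rested on untreated procambium, where 1 of 2 arrays reached log2 5: it was 79.1-fold without replicate 1 and 13.4-fold without replicate 2 of that group, and 18.7-fold with values under log2 5 set to log2 5. RCA was 1 of 4 of the 5 genes called higher in this comparison, where 18.4% of all probe sets were called higher. The median log2 difference of the 5 genes was 5.02, against -0.01 over all 13202 probe sets tested. The 5 genes were chosen with earlier results of these data known, and SBPASE and ALDH11A3 entered the test through cambium arrays alone. HPR would not have entered without cambium arrays, since only 1 other array reached log2 5 and 2 were needed. The count and the median are therefore descriptions and no test of the set. Under BAP the same zones differed 4.48-fold in RCA (log2 2.16, standard error 0.69, adjusted p = 0.0271). There 3 of the 5 genes were called higher in cambium and 1 was called lower, where 16.3% of probe sets were called higher and 14.7% lower. RCA's call under BAP was lost without replicate 2 of BAP-treated cambium (adjusted p = 0.122) or replicate 1 of BAP-treated procambium (adjusted p = 0.113). Fewer cells of a type and less RNA per cell cannot be told apart in these or any other differences between the sorted samples.

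Untreated cambium exceeded untreated transition cambium in RCA by 3.52 on the log2 scale, with no overlap of arrays, and missed the threshold (adjusted p = 0.0519). Without replicate 2 of untreated cambium, its lowest array there, the adjusted p was 0.00824. In this comparison 0.598% of probe sets were called higher, and 3 of the 5 genes were among them: SBPASE, HPR and ALDH11A3. SBPASE and ALDH11A3 reached log2 5 in cambium only, and HPR would not have been tested without its cambium arrays. All of them entered the test through the group where they are high, so this count is a description. No transition cambium comparison with procambium called RCA, at log2 differences of 1.02 with BAP (adjusted p = 0.298) and 1.5 without it (adjusted p = 0.205). That second comparison rested on both untreated procambium arrays, which read 5.96 and 3.40, and without the brighter of them RCA was called (log2 2.78, adjusted p = 0.0376).

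SBPASE encodes sedoheptulose-1,7-bisphosphatase, which works in the part of the Calvin cycle that rebuilds the CO2 acceptor. SBPASE read 4.39, 5.11 and 2.51 in BAP-treated cambium and 8.96, 4.6 and 6.46 in untreated cambium. It read 3.64, 2.36 and 3.52 in BAP-treated transition cambium and 2.30 on both arrays of untreated transition cambium. In ARR5::GFP cells and in procambium with or without BAP it lay between 2.25 and 2.30 on all 7 arrays. SBPASE was thus detected on 3 of 18 arrays, 1 of BAP-treated cambium and 2 of untreated cambium.

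SBPASE was at least 3.19-fold higher in untreated cambium than in untreated procambium (adjusted p = 0.00247), and at least 3.19-fold higher than in untreated transition cambium (adjusted p = 0.0474). With values under log2 5 set to log2 5, neither comparison was called (adjusted p = 0.0636 and 0.397). The call against transition cambium was also lost without any 1 of 4 arrays, replicates 1 and 3 of untreated cambium (adjusted p = 0.0996 and 0.101) and replicates 1 and 2 of untreated transition cambium (adjusted p = 0.303 and 0.153). Without replicate 1 of untreated cambium the bound was 1.44-fold, and without replicate 2 it was 6.54-fold. Under BAP, SBPASE was not called between cambium and procambium (adjusted p = 0.143), and no size is given since the BAP-treated cambium mean, 4.00, was itself under log2 5.

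Of 26 Calvin cycle genes listed, 6 have a probe set of their own, and 5 of these were bright enough to be tested: RCA, SBPASE, PRK, rbcL and PGK2. PRK, phosphoribulokinase, makes the CO2 acceptor in the step that ends the cycle. PRK read 2.51, 5.43 and 2.52 in BAP-treated cambium and 8.60, 3.97 and 6.58 in untreated cambium, against 2.81 or less on all other arrays. It was at least 2.61-fold higher in untreated cambium than in untreated procambium (adjusted p = 0.0086). That call was lost with values under log2 5 set to log2 5 (adjusted p = 0.0532) and with the compared groups alone (adjusted p = 0.0599), and the bound was 1.21-fold without replicate 1 and 6.02-fold without replicate 2 of untreated cambium. The plastid gene rbcL, for the large subunit of Rubisco, read 10.87, 9.34 and 9.08 in untreated cambium and 7.12 and 7.67 in untreated procambium, a 5.16-fold difference (adjusted p = 0.00528). PGK2, a phosphoglycerate kinase gene, went the other way, with 7.40, 7.27 and 7.81 in untreated cambium and 9.22 and 8.54 in untreated procambium (log2 -1.39, adjusted p = 0.0226). PGK2 lost this call without replicate 1 or 2 of untreated cambium (adjusted p = 0.0561 and 0.0626), without replicate 1 of untreated procambium (adjusted p = 0.173) and with no filter (adjusted p = 0.0539). So 2 of these 3 other genes were higher and 1 was lower in untreated cambium, against shares of 18.4% higher and 17.4% lower among the probe sets tested. PRK reached log2 5 on cambium arrays only, so it entered the test through the zone where it is high. This count is therefore a description as well. In BAP-treated cambium against BAP-treated procambium, none of the 3 was called. CFBP2, a fructose-bisphosphatase gene, reached log2 5 on none of the 18 arrays and was not tested.

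HPR encodes the peroxisomal hydroxypyruvate reductase, which forms glycerate late in photorespiration. HPR read 5.53, 7.35 and 5.80 in BAP-treated cambium and 9.62, 7.28 and 9.14 in untreated cambium. It read 3.21, 2.85 and 4.04 in BAP-treated transition cambium and 5.85 and 4.92 in untreated transition cambium. In ARR5::GFP cells and both procambium groups it lay between 2.17 and 2.22 on all 7 arrays. HPR was detected on all 6 cambium arrays and on 1 transition cambium array, of an untreated sample. A further probe set, annotated to both HPR and AT5G05370, read 10.56 to 13.15 over the 18 arrays and ran the other way, with means of 11.31 in untreated cambium and 12.85 in untreated procambium. Its signal cannot be assigned to either gene, and it was not used.

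HPR was at least 12.8-fold higher in untreated cambium than in untreated procambium (adjusted p = 5.69e-06), and under BAP at least 2.35-fold higher (adjusted p = 9.17e-05). It was the only one of the 5 genes called higher in untreated transition cambium against untreated procambium, at least 1.31-fold (adjusted p = 0.00403), a comparison in which 15.6% of all probe sets were called higher. That call was lost without replicate 1 of untreated transition cambium (adjusted p = 0.0505). Setting values under log2 5 to log2 5 removed it (log2 0.42, adjusted p = 0.702), and removed HPR's call under BAP as well (log2 1.23, adjusted p = 0.104). The untreated difference between cambium and procambium was called in every setting, with a bound of 20.9-fold without replicate 2 of untreated cambium. The bound under BAP was 1.59-fold without replicate 2 of BAP-treated cambium.

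Between neighbouring zones, HPR was 9.83-fold higher in untreated cambium than in untreated transition cambium (adjusted p = 0.0249), and 1 of the 2 transition cambium arrays reached log2 5. Without replicate 2 of untreated cambium it was 16.0-fold higher. The call was lost without replicates 1 or 3 of untreated cambium (adjusted p = 0.0996 and 0.0925) or replicates 1 or 2 of untreated transition cambium (adjusted p = 0.127 and 0.165). In BAP-treated roots the cambium level was at least 2.35-fold that of transition cambium (adjusted p = 0.0253). HPR and ALDH11A3 were the 2 of 5 genes called there, where 0.598% of all probe sets were called higher. ALDH11A3 entered the test through its cambium arrays alone, and HPR would not have entered without them, so that count is a description too. HPR lost this call without replicate 2 or 3 of BAP-treated cambium (adjusted p = 0.104 and 0.0524) or replicate 1 or 2 of BAP-treated transition cambium (adjusted p = 0.0955 and 0.130). It was also lost in 3 of 8 other settings, among them values under log2 5 set to log2 5 (log2 1.23, adjusted p = 0.448).

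Among 31 photorespiration genes listed, 8 have a probe set of their own and 7 were tested. Of the 6 besides HPR, 1 was called higher in untreated cambium than in untreated procambium, where 18.4% of all probe sets were. GDCH3, for an H protein of the mitochondrial glycine decarboxylase, read 6.04, 6.75 and 5.74 in BAP-treated cambium and 9.21, 6.5 and 8.06 in untreated cambium. It read 5.78 to 6.83 in transition cambium and 2.61 to 3.90 in procambium and ARR5::GFP cells. GDCH3 was at least 7.58-fold higher in untreated cambium than in untreated procambium (adjusted p = 2.55e-05) and at least 2.26-fold higher under BAP (adjusted p = 0.000601). It was the only one of these 6 genes called higher in transition cambium against procambium, at least 2.46-fold with BAP and at least 1.84-fold without it. With values under log2 5 set to log2 5 the calls with BAP (adjusted p = 0.0747) and without it (adjusted p = 0.332) were lost, as was that of cambium against procambium under BAP (adjusted p = 0.103). The bound of GDCH3 in untreated cambium was 4.85-fold without replicate 1 and 12.4-fold without replicate 2. With BAP, 15.7% of all probe sets were called higher in that comparison.

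GDCH2, for another H protein, moved the opposite way: it read 10.63, 11.03 and 11.17 in untreated cambium and 12.18 and 12.17 in untreated procambium (log2 -1.23, adjusted p = 0.0022). GLYK, for the glycerate kinase that returns carbon to the Calvin cycle, was lower in cambium than in procambium under BAP (log2 -1.08, adjusted p = 0.0319). Its call was lost without any 1 of 4 of the 6 arrays, replicates 1 and 3 of BAP-treated cambium (adjusted p = 0.123 and 0.0854) and of BAP-treated procambium (adjusted p = 0.0559 and 0.115), and with no filter (adjusted p = 0.0781). GLDT (the T protein of glycine decarboxylase), HPR2 (a cytosolic hydroxypyruvate reductase) and BASS6 (a glycolate transporter) were called in none of the 15 comparisons. The median log2 difference of the 6 genes between untreated cambium and procambium was -0.49, with 1 called higher and 1 called lower. Over all probe sets the shares were 18.4% and 17.4%. PLGG1, the plastid glycolate and glycerate carrier, was detected on 1 array, replicate 1 of untreated cambium, at 7.06, and was not tested.

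**Figure D2:**
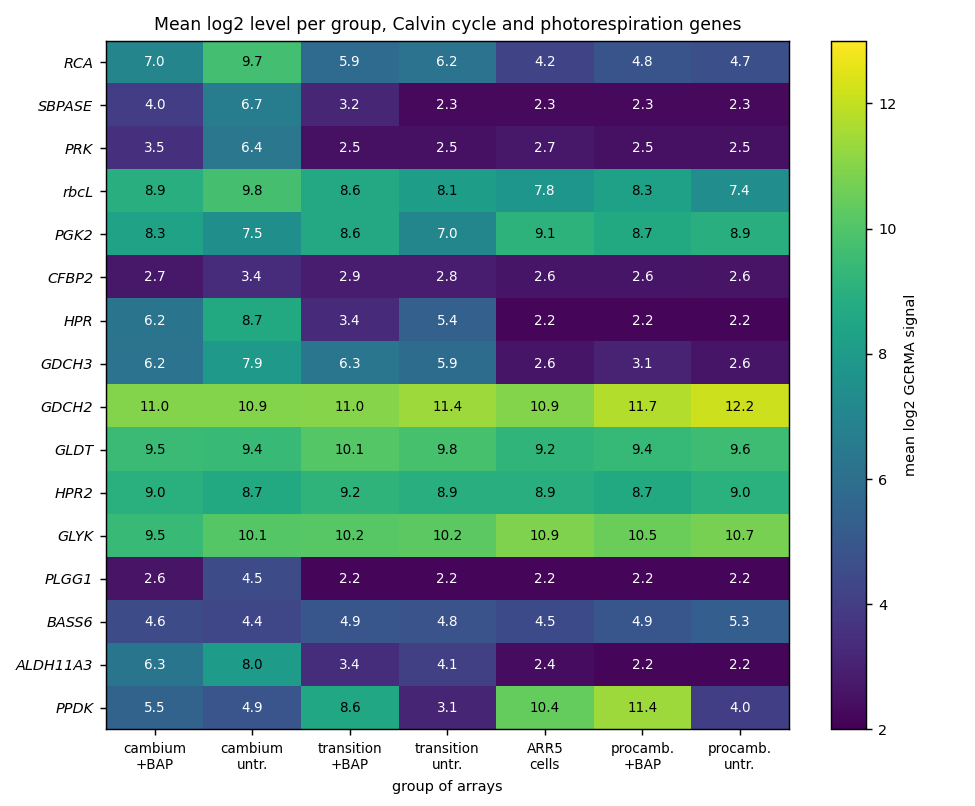
Mean log2 signal (colour and printed number) of the Calvin cycle and photorespiration genes with a probe set of their own, with ALDH11A3 and PPDK, in each of the 7 groups of arrays. RCA, SBPASE, PRK, rbcL, HPR, GDCH3 and ALDH11A3 have their highest mean in untreated cambium, and GDCH2 in untreated procambium.

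ALDH11A3 encodes the non-phosphorylating glyceraldehyde-3-phosphate dehydrogenase of the cytosol, which makes NADPH and 3-phosphoglycerate from triose phosphate that plastids export. ALDH11A3 read 5.69, 7.54 and 5.58 in BAP-treated cambium and 9.14, 7.22 and 7.75 in untreated cambium. It read 3.62, 2.68 and 3.97 in BAP-treated transition cambium and 4.83 and 3.31 in untreated transition cambium. In ARR5::GFP cells it read 2.56 and 2.17, in BAP-treated procambium 2.17 on all 3 arrays, and in untreated procambium 2.17 and 2.25. Only the 6 cambium arrays reached log2 5, and they did not overlap the other 12.

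It was at least 8.20-fold higher in untreated cambium than in untreated procambium (adjusted p = 1.80e-05) and at least 8.20-fold higher than in untreated transition cambium (adjusted p = 0.0100). The second call was lost without replicate 2 of untreated transition cambium (adjusted p = 0.0954). Under BAP the cambium level was at least 2.41-fold that of procambium (adjusted p = 9.68e-05) and that of transition cambium (adjusted p = 0.0289). Setting values under log2 5 to log2 5 ended both of these calls (adjusted p = 0.0641 and 0.361), and the bound was 1.55-fold without replicate 2 of BAP-treated cambium. The second was lost as well without replicate 1 or 2 of BAP-treated cambium (adjusted p = 0.0537 and 0.114) or replicate 1 or 2 of BAP-treated transition cambium (adjusted p = 0.0821 and 0.158).

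The list of aldehyde dehydrogenase and cytosolic glyceraldehyde-3-phosphate dehydrogenase genes has 19 members, of which 9 were measured and tested. Of the 8 besides ALDH11A3, ALDH3F1 was higher in untreated cambium than in untreated procambium (at least 3.55-fold, adjusted p = 0.00145), while ALDH6B2 (log2 -1.38) and ALDH22A1 (log2 -1.15) were lower. The median of the 8 was -0.63. GAPC2, the phosphorylating enzyme of glycolysis in the same compartment, read 13.63, 13.55 and 13.55 in untreated cambium and 13.11 and 13.14 in untreated procambium, and was not called.

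In BAP-treated cambium against untreated cambium, 3 of the 5 genes were called lower, where 7.15% of all probe sets were called lower. RCA was 6.46-fold lower after BAP (log2 -2.69, standard error 0.69, adjusted p = 0.0183), with no overlap of arrays. HPR was 5.48-fold lower (log2 -2.45, standard error 0.58, adjusted p = 0.0117) and SBPASE 6.35-fold lower (log2 -2.67, standard error 0.85, adjusted p = 0.0471). For both, the brightest BAP-treated array, replicate 2, stood above the dimmest untreated array, also replicate 2. Only 1 of 3 BAP-treated arrays of SBPASE reached log2 5, and with values under log2 5 set to log2 5 it was 3.41-fold lower and not called (adjusted p = 0.0765). ALDH11A3 had a log2 difference of -1.77 (standard error 0.59), which was not called (adjusted p = 0.0573), and its arrays overlapped in the same way. The median difference of the 5 genes was -2.45, against 0.02 over all probe sets tested. This too is a description, since it uses the same 3 untreated cambium arrays as the differences between zones.

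These calls and sizes rested on few arrays. Without 1 array the size ran from 4.64-fold to 10.8-fold for RCA, from 2.87-fold to 13-fold for SBPASE and from 3.95-fold to 8.90-fold for HPR, each highest without replicate 2 of untreated cambium and lowest without replicate 1 of it. RCA's adjusted p was 0.0732 without replicate 1 and 0.0656 without replicate 3 of untreated cambium, and 0.0771 without replicate 1 and 0.0667 without replicate 3 of BAP-treated cambium. HPR's was 0.052 without replicate 1 of untreated cambium, and 0.0609 without replicate 1 and 0.0523 without replicate 3 of BAP-treated cambium. SBPASE lost its call without the same 4 arrays as RCA (adjusted p = 0.0893 to 0.193). ALDH11A3 was called without replicate 2 of untreated cambium (adjusted p = 0.0388) or replicate 2 of BAP-treated cambium (adjusted p = 0.0174). The log2 differences of these 4 genes were negative in every setting.

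Of the other Calvin cycle and photorespiration genes tested, PRK (log2 -2.89, adjusted p = 0.0447) and GDCH3 (log2 -1.74, adjusted p = 0.0493) were also called lower in cambium after BAP. PRK lost its call without replicate 1 or 3 of untreated cambium (adjusted p = 0.170 and 0.107) or of BAP-treated cambium (adjusted p = 0.163 and 0.159), and with values under log2 5 set to log2 5 (log2 -1.58, adjusted p = 0.0823). GDCH3 lost its call without any 1 of 5 of the 6 arrays, all but replicate 2 of untreated cambium (adjusted p = 0.0536 to 0.188). Each also lost it in other settings, with no filter (adjusted p = 0.119 and 0.118), with the replicate number as a block (adjusted p = 0.0706 and 0.0716) and with the compared groups alone (adjusted p = 0.140 and 0.0993), and GDCH3 without a variance trend (adjusted p = 0.05003). The remaining 7 were not called, and rbcL, with 9.76, 9.25 and 7.81 in BAP-treated cambium and 10.87, 9.34 and 9.08 in untreated cambium, overlapped between the groups. None of the 7 listed regulators of greening has a probe set of its own here.

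In transition cambium and procambium, none of RCA, SBPASE, HPR and ALDH11A3 differed past the threshold between BAP-treated and untreated arrays. HPR came nearest, in transition cambium, where it read 3.21, 2.85 and 4.04 after BAP and 5.85 and 4.92 without it (at least 1.31-fold lower, adjusted p = 0.0645). SBPASE and ALDH11A3 reached log2 5 on no array of either zone, and HPR on no procambium array. A fall could not be seen in these cases, so they do not show that BAP had no effect. Over all probe sets, 4.70% were called lower after BAP in transition cambium and 6.44% in procambium. Averaged over the 3 zones, the log2 level of HPR fell by 1.49 after BAP (standard error 0.36, adjusted p = 0.00642), or by 0.96 with values under log2 5 set to log2 5 (adjusted p = 0.0423). With values set so, RCA was called lower as well (log2 -1.10, adjusted p = 0.0287), and it was also called without replicate 2 of untreated cambium (adjusted p = 0.0319) or of untreated procambium (adjusted p = 0.022), as was ALDH11A3 without replicate 2 of BAP-treated cambium (adjusted p = 0.0334). As deposited, HPR was the 1 gene of the 5 called lower over the zones, where 15.0% of probe sets were called lower, and PPDK the 1 called higher, where 15.2% were.

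Whether the BAP effect differed between zones was tested directly, though not every gene could show such a difference. SBPASE, HPR and ALDH11A3 reached log2 5 on no procambium array, so a fall there could not be seen. SBPASE and ALDH11A3 reached it on no transition cambium array either. For these genes the test mostly restates the effect in cambium and cannot show whether the zones responded differently. For RCA, SBPASE, HPR and ALDH11A3 the effect in cambium minus that in procambium was -2.86, -2.69, -2.47 and -1.73 on the log2 scale, and none was called (adjusted p = 0.103, 0.211, 0.0927 and 0.253). With values under log2 5 set to log2 5 these were -2.40, -1.77, -2.45 and -1.77, again with none called. Without replicate 2 of untreated cambium, 3 of these were called, RCA (adjusted p = 0.0317), SBPASE (adjusted p = 0.0453) and HPR (adjusted p = 0.0187). RCA was called too without replicate 1 of untreated procambium (adjusted p = 0.0302), and HPR without replicate 2 of BAP-treated cambium (adjusted p = 0.0413). None of the 5 genes was called for transition cambium minus procambium, where 5.27% of all probe sets were called, or for cambium minus transition cambium, where 0.371% were.

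**Figure D3:**
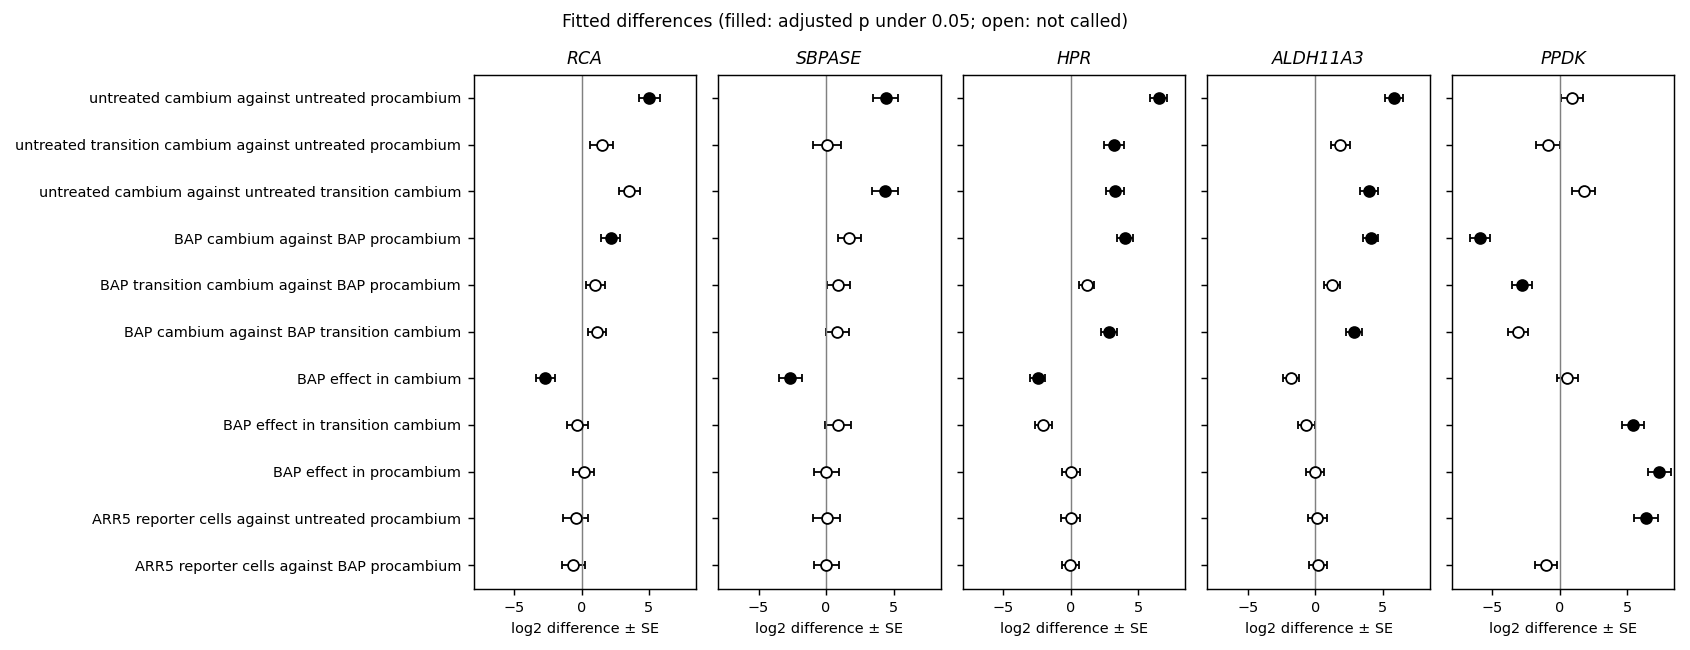
Log2 difference of each of the 5 genes (horizontal axis, points, with limma standard errors as bars) in the comparisons of zones, of BAP treatment and of ARR5::GFP cells; filled points passed an adjusted p of 0.05. PPDK has its largest differences for BAP in procambium (7.38) and for ARR5::GFP cells against untreated procambium (6.37), and HPR, ALDH11A3 and RCA theirs in untreated cambium against untreated procambium (6.51, 5.83 and 5.02).

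PPDK, whose enzyme makes phosphoenolpyruvate, was higher on BAP-treated than on untreated arrays of procambium and transition cambium. It read 4.46, 6.32 and 5.69 in BAP-treated cambium and 3.93, 4.00 and 6.83 in untreated cambium. In transition cambium it read 8.84, 8.78 and 8.14 after BAP and 3.80 and 2.49 without it. It read 9.93 and 10.86 in ARR5::GFP cells, 10.69, 11.62 and 11.88 in BAP-treated procambium, and 2.95 and 5.09 in untreated procambium. The BAP-treated and untreated arrays lay far apart in procambium and transition cambium and overlapped in cambium.

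After BAP, PPDK was 166-fold higher in procambium (log2 7.38, standard error 0.84, adjusted p = 3.79e-05), where 1 of 2 untreated arrays reached log2 5. The size was 79.3-fold without replicate 1 and 349-fold without replicate 2 of untreated procambium, and 81.8-fold with values under log2 5 set to log2 5. It was at least 12.0-fold higher in transition cambium (adjusted p = 0.00114). In each of these comparisons PPDK was the 1 gene of the 5 called, and it was called higher, as were 7.61% of all probe sets in procambium and 4.70% in transition cambium. In cambium the log2 difference was 0.57 (standard error 0.75, adjusted p = 0.65). The effect in cambium minus that in procambium was -6.81 (standard error 1.13, adjusted p = 0.00202), and PPDK was the 1 gene of the 5 called lower in that test, where 5.13% of probe sets were. The effect in transition cambium minus that in procambium was -1.94 (adjusted p = 0.415), or -2.77 with values under log2 5 set to log2 5 (adjusted p = 0.0488). Over the mean of the 3 zones PPDK rose by 4.46 (standard error 0.47, adjusted p = 1.19e-05).

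Under BAP, PPDK was 60.0-fold lower in cambium than in procambium (log2 -5.91, adjusted p = 3.13e-05) and was 7.02-fold lower in transition cambium than in procambium (log2 -2.81, adjusted p = 0.0113). It was the 1 gene of the 5 called lower in the second comparison, where 13.5% of all probe sets were. Cambium and transition cambium differed by -3.10 with no overlap of arrays, and this was not called (adjusted p = 0.0638), though it was with values under log2 5 set to log2 5 (adjusted p = 0.00866). Without BAP, PPDK was not called between any pair of zones (adjusted p = 0.434 to 0.546). No untreated transition cambium array reached log2 5, and 1 array of each of the other untreated zones did, so no sizes are given. In that transition cambium comparison 12.5% of all probe sets were called lower, among them PGK2 (log2 -1.83), whose call was lost without 2 of the 4 arrays (adjusted p up to 0.123).

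In ARR5::GFP cells, PPDK was 82.9-fold higher than in untreated procambium (log2 6.37, standard error 0.90, adjusted p = 7.38e-05), although neither group had been given BAP. The size was 39.5-fold without replicate 1 and 174-fold without replicate 2 of untreated procambium, and 40.8-fold with values under log2 5 set to log2 5. It was the 1 gene of the 5 called higher, with 14.0% of all probe sets in the same direction and 17.5% in the other, GDCH2 (log2 -1.24) among these, a call lost without any 1 of 3 of the 4 arrays (adjusted p up to 0.257). Against BAP-treated procambium the log2 difference was -1.0 (standard error 0.82, adjusted p = 0.38), and none of the 5 genes was called, where 31.4% of all probe sets were. These 2 comparisons share the ARR5::GFP arrays. Reporter, seedling age and the stretch of root taken differ together between them and the ARR15::GFP arrays, and cannot be told apart. Against untreated procambium, SBPASE, HPR and ALDH11A3 were undetected on every array of both groups, and RCA had a log2 difference of -0.44 (adjusted p = 0.766), which ran from -1.72 to 0.84 without 1 array.

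RCPG, a root cap polygalacturonase gene and the 1 of 4 root cap markers with a probe set, was bright on the same groups of arrays as PPDK in part. RCPG read 13.81 and 14.21 in ARR5::GFP cells, 10.34, 11.50 and 11.00 in BAP-treated procambium, and 2.94 and 3.75 in untreated procambium. In BAP-treated transition cambium RCPG read 3.83, 7.65 and 3.49, and PPDK was at 8.84, 8.78 and 8.14 on the same arrays. PPDK was thus bright on all 3 arrays of that group, of which 2 had RCPG under log2 5. On the other 10 arrays RCPG was at 3.75 or less. Over the 18 arrays, which fall into these groups, the Pearson correlation of PPDK with RCPG was 0.846, and it was 0.234 for deviations from the group means. The part of root cap RNA in the PPDK differences of procambium was not tested.

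**Figure D4:**
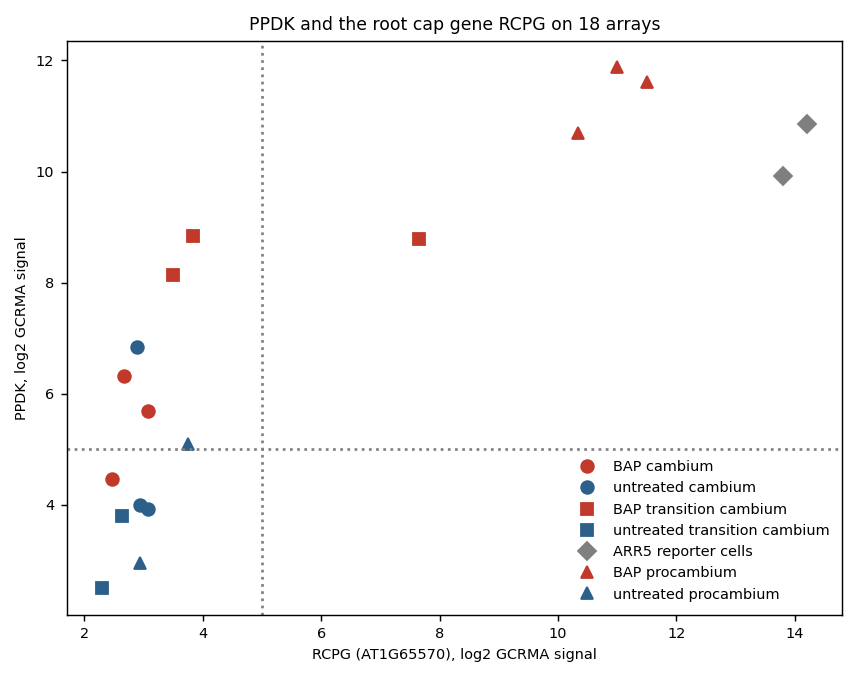
Log2 signal of PPDK (vertical axis) against that of the root cap gene RCPG (horizontal axis) on 18 arrays, with dotted lines at log2 5. The 5 arrays of BAP-treated procambium and ARR5::GFP cells are high in both, and 2 of 3 BAP-treated transition cambium arrays have PPDK at 8.14 and 8.84 with RCPG under log2 5.

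Within a group, RCA, SBPASE, HPR and ALDH11A3 also varied together. In untreated cambium all 4 were highest on replicate 1 and lowest on replicate 2, and these arrays differed by 2.44 for RCA, 4.36 for SBPASE, 2.34 for HPR and 1.91 for ALDH11A3 on the log2 scale. In BAP-treated cambium all 4 were highest on replicate 2, and in BAP-treated transition cambium all 4 were lowest on replicate 2. Over 18 arrays the deviations of HPR and ALDH11A3 from their group means had a Pearson correlation of 0.884, and those of SBPASE with these 2 were 0.765 and 0.767. RCA's with the other 3 were 0.512 to 0.604, and PPDK's with the 4 were -0.06 to 0.34. Genes on 1 array share its RNA, amplification and normalization, so these correlations are descriptions.

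PRK and GDCH3 had the same order of arrays in untreated cambium. PEP, a cortex marker, read 8.27 on replicate 1 of untreated cambium and 2.50 and 2.78 on replicates 2 and 3. The other cortex marker listed, CO2, stayed between 2.17 and 3.44 on all arrays. PEP also read 5.42 and 6.58 in untreated procambium, where SBPASE, HPR and ALDH11A3 were undetected. Without replicate 1 of untreated cambium, RCA, SBPASE, HPR and ALDH11A3 were still called higher there than in untreated procambium, while RCA, SBPASE and HPR were no longer called for the BAP effect in cambium. The part of cortex RNA in these differences was not tested. None of the 24 listed markers of epidermis, endodermis, pericycle, phloem and xylem has a probe set of its own here.

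**Figure D5:**
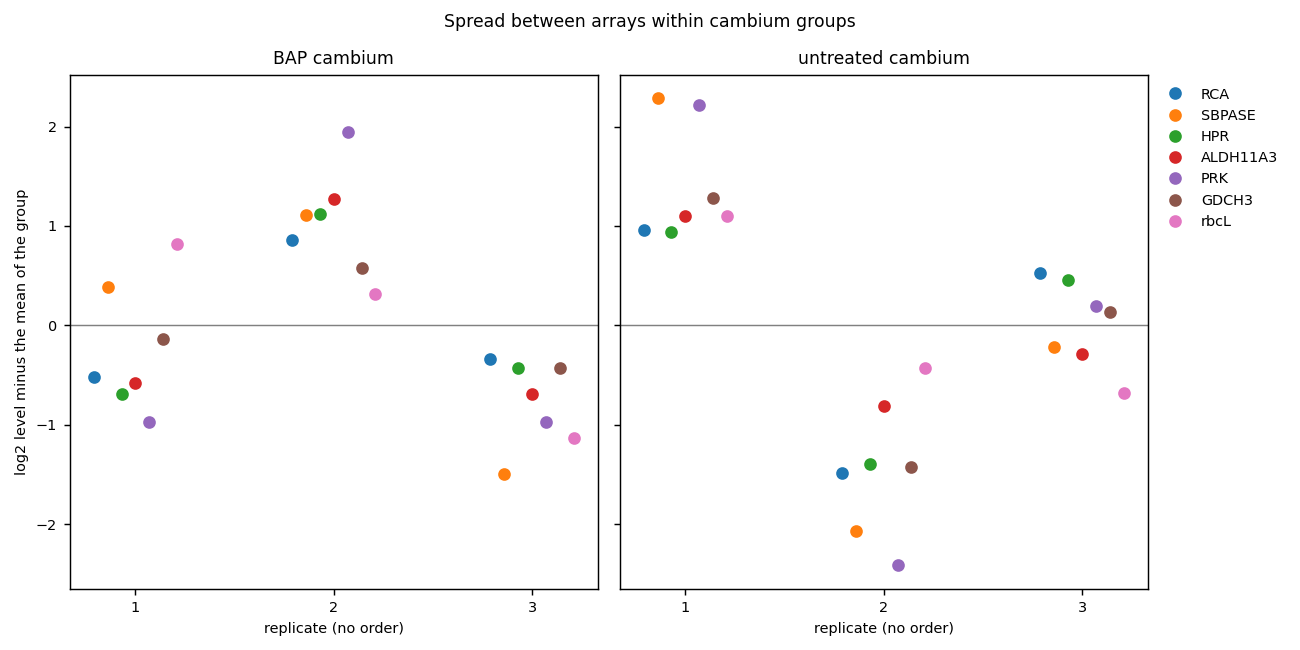
Deviation of each array from its group mean (vertical axis, log2) for RCA, SBPASE, HPR, ALDH11A3, PRK, GDCH3 and rbcL on the 3 arrays of BAP-treated cambium (left) and of untreated cambium (right); replicate numbers have no order. In untreated cambium all 7 genes are above the mean on replicate 1 and below it on replicate 2.

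Levels of RCA, SBPASE, HPR and ALDH11A3 over the 18 arrays correlated with one another at r = 0.848 to 0.977, highest for HPR with ALDH11A3, and with PPDK at -0.555 to -0.322. Among 7195 other probe sets with a gene of their own, the 5 closest to each gene by Pearson correlation over the 18 arrays were named. PSBW, for a subunit of photosystem II, was among the 5 closest to each of the 4 genes, at r = 0.912 for RCA, 0.916 for SBPASE, 0.920 for HPR and 0.949 for ALDH11A3. PRK was closest to SBPASE (r = 0.939). AT5G38980 was closest to both HPR (r = 0.936) and ALDH11A3 (r = 0.962), and AT2G27680 to RCA (r = 0.932). Also among the 5 closest were FUG1, a plastid translation initiation factor gene, for RCA (r = 0.897), PIFI, a gene of chloroplast electron flow, for SBPASE (r = 0.918), BCAT4, an aminotransferase gene of methionine-derived glucosinolate synthesis, for HPR (r = 0.933), and THIC, of thiamin synthesis in plastids, for ALDH11A3 (r = 0.936). The gene closest to PPDK was AT3G54150 (r = 0.976), followed by AT3G61930 (r = 0.926). These levels fall into groups of like arrays, so the correlations mostly state that the genes share an order of groups.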

How the data were processed

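The authors deposited a log2 signal for each of 22810 probe sets on each array and made it with GCRMA, per the submitters' processing notes. Neither its version nor the set of arrays it ran over is given in the sources used here. The values were used without further scaling. The RNA was amplified before labelling, per the labels' protocols. Without 64 controls, the probe sets with at least 2 arrays at log2 5 were tested, which were 13202 for the 16 ARR15::GFP arrays and 13465 for all 18.

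Group means were fitted with limma 3.58.1 (R 4.3.3) and a variance trend on intensity. The 13 comparisons among ARR15::GFP arrays used the 16 arrays (10 residual degrees of freedom), and the 2 with ARR5::GFP cells used all 18 (11). Benjamini-Hochberg adjusted p-values cover all probe sets kept. The fit was tested on simulated data, with changes planted in bright probe sets only and with the same spread in every group. That test does not cover genes at the lowest signal in most groups, such as SBPASE, HPR and ALDH11A3. Arrays of a group are biological replicates per the labels, which name no batch, so BAP treatment and a batch of seedlings cannot be told apart. p-values measure the spread between these arrays only. The fit pools the variance of a probe set over all its groups. For SBPASE, HPR, ALDH11A3 and PRK the pool includes groups at the lowest signal, which have almost no spread. SBPASE had an SD of 2.19 in untreated cambium and 0.02 in untreated procambium. For these genes, standard errors and adjusted p-values of comparisons with cambium can therefore be too small.

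Genes were named from probe sets with 1 annotated gene, and for a gene with several the brightest on average was used. The names PGK2, CFBP2, GLDT, GDCH2, GDCH3, HPR2, GLYK, BASS6, PLGG1, RCPG and PEP were given by locus from the lists. The text names the 5 genes, any gene of the pathway and marker lists, and the 5 probe sets closest to each gene in pattern. The genes, lists and tests were chosen with earlier results of these data known. Alternatives were other scalings, no filter, values raised to log2 5, no variance trend, the replicate number as a block, other sets of arrays, and leaving out each array.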

Additional observations from a re-analysis of the deposited data

Results flagged for a closer look

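PPDK is listed because its difference between BAP-treated and untreated arrays was unlike between zones, by a direct test. The BAP effect in cambium minus that in procambium was -6.81 on the log2 scale (standard error 1.13, limma adjusted p = 0.00202), made of a log2 difference of 0.57 in cambium and 7.38 in procambium. With values under log2 5 raised to log2 5 it was -6.29 (adjusted p = 8.9e-05). The root cap gene RCPG was at 10.34 to 11.50 on the BAP-treated procambium arrays and at 3.07 or less on all cambium arrays; its part in the difference was not tested. No group has 4 or more arrays, so single arrays were not tested as outliers.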

How the results depend on the processing

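Of 24 calls of the 5 genes, 14 held without any 1 array and 12 held in all other settings; no called difference changed sign, while 17 differences called in neither setting did. The number of the 5 genes called depended on the setting as follows. With values under log2 5 raised to log2 5 it was 2 in place of 4 for BAP-treated cambium against BAP-treated procambium, 0 in place of 1 for untreated transition cambium against untreated procambium, 1 in place of 2 for BAP-treated cambium against BAP-treated transition cambium, and 1 in place of 0 for the BAP effect in transition cambium minus that in procambium. The 1 gene called between cambium and transition cambium under BAP was then PPDK, which was lower (log2 -2.91, adjusted p = 0.00866). HPR and ALDH11A3 both lost their calls there (adjusted p = 0.4482 and 0.3615). With no filter, which adjusts over 22746 probe sets, the number of the 5 genes called was 1 in place of 3 for untreated cambium against untreated transition cambium, 0 in place of 2 for the same zones under BAP, and 1 in place of 3 for the BAP effect in cambium. With the compared groups alone it was 0 in place of 3 for untreated cambium against untreated transition cambium and 0 in place of 1 for untreated transition cambium against untreated procambium. Without 1 array it ranged over 3 to 4 for BAP-treated cambium against BAP-treated procambium, 0 to 2 for untreated transition cambium against untreated procambium, 0 to 4 for untreated cambium against untreated transition cambium, 0 to 2 for these zones under BAP, 0 to 4 for the BAP effect in cambium (3 with all arrays), 2 to 3 for the effect averaged over zones, and 1 to 4 for the effect in cambium minus that in procambium. It did not change without 1 array in the other 8 comparisons. The no-filter setting adjusts over more probe sets and the others drop values or arrays by construction; the cause was not tested further. Over all probe sets, the compared groups alone gave 2771 calls in place of 4720 for untreated cambium against untreated procambium, 1637 in place of 3720 for untreated transition cambium against untreated procambium, 5 in place of 100 for untreated cambium against untreated transition cambium, 863 in place of 1855 for BAP in procambium, 408 in place of 696 for the BAP effect in transition cambium minus that in procambium, 1507 in place of 4244 for ARR5::GFP cells against untreated procambium and 2351 in place of 4224 against BAP-treated procambium. No filter gave 82 in place of 167 for BAP-treated cambium against BAP-treated transition cambium.

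Same-numbered arrays of different groups did not deviate together: over 36 pairs of same-numbered arrays, correlations of deviations ran from -0.523 to 0.278 and 2 were over 0.1, so the numbers were not taken to pair the samples. These numbers are the replicate labels. The title of untreated procambium replicate 2 also carries the number 3, and the titles of ARR5::GFP replicates 1 and 2 carry 2 and 3. Pairing by those title numbers was not tested. With the replicate number as a block, 1 of the 5 genes in place of 3 was called for untreated cambium against untreated transition cambium, and 0 in place of 2 for these zones under BAP; SBPASE also lost its call for the BAP effect in cambium (adjusted p = 0.0555). The effect averaged over zones uses all 16 arrays, so no fit of the compared groups alone was made for it. Signals near the lowest value set the size of fitted differences, and groups of 2 or 3 arrays limit the precision.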
